A study of Homo sapiens with 15 samples.

Results

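NOTCH1, NOTCH2, HES1, HES4, HES6, HEY1, ID1, ID2 and ID3 code for Notch receptors, for transcription factors of the HES and HEY family, and for the ID inhibitors of such factors. These 9 genes, of the 20468 in each of the deposited expression tables, were selected by name with their measured levels in the same libraries in view. Their levels, fold changes and calls are therefore a description. The calls printed below mark which values passed the thresholds, and no conclusion is drawn from them.

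The study grew the human multiple myeloma lines MM.1S and RPMI8226 with or without HS5, an established line of human bone marrow stromal cells, for 48 h. Myeloma cells were cultured alone (MONO), in the upper chamber of a transwell that lets soluble factors pass (TSW), or in the lower chamber of the same system mixed with HS5 cells (CO). The study's methods describe a sort for CD90-CD38+ cells before RNA was taken. MM.1S had 3 libraries in each condition and RPMI8226 had 2, which gives 15 RNA-seq libraries of polyadenylated RNA.

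Notch receptors are cleaved when a Jagged or Delta-like ligand on a neighbouring cell binds them, and the freed intracellular domain joins the DNA-binding protein RBPJ to switch on genes such as HES1 and HEY1. HES and HEY proteins are repressors with a basic helix-loop-helix (bHLH) domain, while ID proteins lack the basic region and keep the E proteins, the partners of many bHLH factors, off DNA. ID genes are well known targets of bone morphogenetic protein (BMP) signals carried by SMAD factors, and myeloma cells are known to carry Notch receptors and ligands.

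Levels are in RPKM, read pairs scaled to the exon length of the gene and to the assigned pairs of the library. By the totals recovered from the tables, the libraries held between 9008977 pairs (MM.1S MONO replicate 1) and 19050772 pairs (MM.1S MONO replicate 2), so that 1 pair on a transcript of 2 kb equals an RPKM of 0.0262 to 0.0555. The study lists fewer pairs for MM.1S MONO replicate 2, the same number as for RPMI8226 MONO replicate 2. Its largest listed number is that of RPMI8226 CO replicate 2. MM.1S MONO replicate 1 also stood apart in the balance of long and short genes. There the median log2 deviation of the 1018 genes with over 8000 exon bases, minus that of the 1148 genes with under 1500, was -0.78, against -0.047 to 0.33 in the other 8 MM.1S libraries. NOTCH1 (9295 exon bases) and NOTCH2 (12402) are long and HES1 (1461), HES6 (1454), ID1 (1233), ID2 (1364) and ID3 (1239) are short, so values without this library, or after a correction for GC content and length, are given beside the genes. The cause was not tested.

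NOTCH1 (Entrez 4851, chr9:136494433-136546048 on GRCh38) codes for a receptor with roles across blood cell development. In RPMI8226 its RPKM was 13.6 and 15.3 in the MONO libraries, 6.11 and 7.24 in TSW, and 5.60 and 6.09 in CO. Both MONO libraries lay above every stroma-exposed library, and TSW and CO did not overlap either. The mean was 14.5 ± 1.23 (SD, n = 2) in MONO, 2.17 times that of TSW and 2.47 times that of CO, with log2 fold changes of -1.01 and -1.17 (standard error, SE, 0.10). In bulk RNA, fewer cells with the transcript and less of it per cell cannot be told apart.

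In MM.1S the NOTCH1 RPKM was 6.88, 10.3 and 8.86 in MONO, 9.20, 9.38 and 8.52 in TSW, and 7.70, 8.30 and 7.77 in CO. The MONO libraries overlapped both other groups, with log2 fold changes of 0.065 in TSW and -0.10 in CO (SE 0.13). Without MONO replicate 1 they were -0.076 and -0.25 (SE 0.087), and the correction for GC content and length gave 0.11 and -0.038. Means were 8.69 ± 1.74, 9.03 ± 0.457 and 7.92 ± 0.330 (SD, n = 3).

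NOTCH2 (Entrez 4853, chr1:119911553-120069662), the receptor that marginal zone B cells depend on, had the higher level of the 2 receptors in every library. The RPKM in MM.1S was 7.22, 16.3 and 17.0 in MONO, 20.3, 18.2 and 19.0 in TSW, and 21.4, 21.8 and 24.3 in CO. The groups did not overlap, but MONO replicate 1 lay far under the other MONO libraries. With log2 fold changes of 0.56 in TSW and 0.78 in CO (SE 0.24), only the CO value passed the thresholds given with the counts of genes. Without MONO replicate 1 these values were 0.19 and 0.41 (SE 0.081) and neither passed. The correction for GC content and length gave 0.41 and 0.61, and the CO call was kept. The CO call was also lost without CO replicate 1 (0.81), 2 (0.80) or 3 (0.72), with no filter on low values and with only the 2 conditions compared, and the TSW value passed (0.76) without MONO replicate 3.

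In RPMI8226 the NOTCH2 RPKM was 29.7 and 32.9 in MONO, 27.2 and 26.6 in TSW, and 25.4 and 27.2 in CO. MONO lay above the other groups, which overlapped each other, and the log2 fold changes were -0.21 and -0.24 (SE 0.078). They were -0.14 and -0.13 under median-of-ratios scaling, -0.13 and -0.10 under quantile normalization, and -0.24 and -0.40 after the correction for GC content and length. NOTCH2NLA, a partial copy of NOTCH2 with near-identical sequence, had means of 3.04, 5.73 and 6.24 in MONO, TSW and CO of MM.1S and 1.45, 1.09 and 2.06 in RPMI8226. How read pairs were shared between the copies was not tested.

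HES1 (Entrez 3280, chr3:194136148-194138732), the best known direct Notch target and a repressor of its own gene, was lower with stroma in RPMI8226. In RPMI8226 its RPKM was 7.62 and 6.75 in MONO (139 and 146 read pairs), 2.51 and 1.68 in TSW (68 and 44), and 1.80 and 2.19 in CO (43 and 60). Both MONO libraries were above all 4 stroma-exposed libraries, and TSW and CO overlapped. The MONO mean of 7.19 ± 0.618 was 3.43 times the TSW mean and 3.6 times the CO mean, with log2 fold changes of -1.41 and -1.45 (SE 0.14), or -1.27 and -1.13 after the correction for GC content and length.

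HES1 in MM.1S had an RPKM of 10.9, 5.53 and 5.52 in MONO, 8.54, 8.82 and 7.35 in TSW, and 9.90, 9.28 and 9.65 in CO. MONO replicate 1 was the highest of the 9 libraries and the other MONO libraries the lowest, so MONO overlapped the rest. The log2 fold changes were 0.21 in TSW and 0.41 in CO (SE 0.20) and did not pass. Without MONO replicate 1 they were 0.50 and 0.70 (SE 0.088), and the CO value passed. The lowest values with 1 library left out were 0.061 in TSW and 0.26 in CO. The correction for GC content and length gave 0.28 and 0.55, and neither passed.

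**Figure D1:**
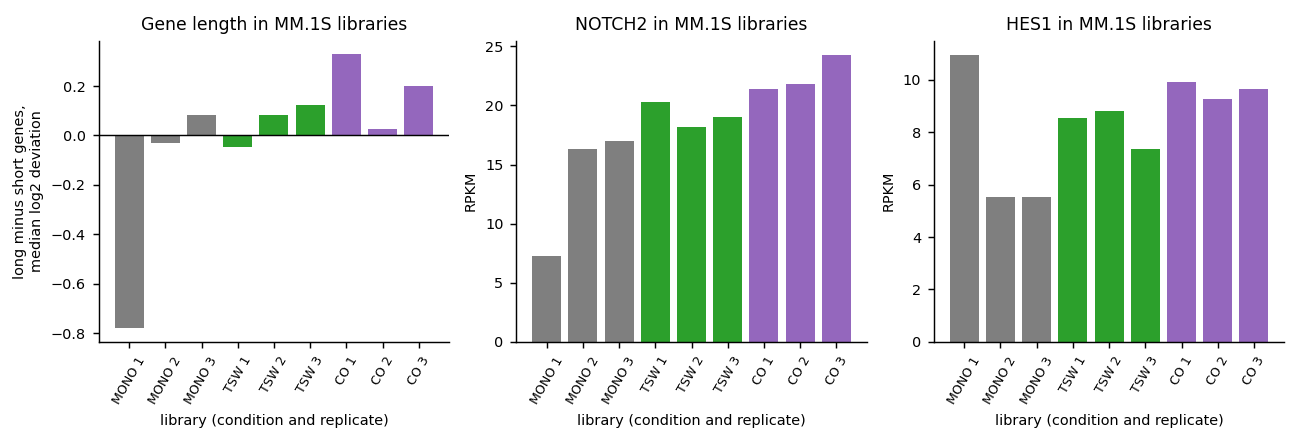
Long minus short genes (median log2 deviation) and the RPKM of NOTCH2 and HES1, one bar for each MM.1S library coloured by condition. MONO replicate 1 has a length value of -0.78, an RPKM of 7.22 for NOTCH2 and 10.9 for HES1, each apart from the other MONO libraries.

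The bars for length, NOTCH2 and HES1 in MM.1S show that the library with the shortfall of long genes had the lowest level of the long NOTCH2 and the highest of the short HES1. Among the MONO libraries, it also had the lowest NOTCH1 and the highest ID1, ID2 and ID3, while the short HES6 was lowest there (12.0 against 13.4 and 12.9). RPMI8226 had no single library so far from its group, with length values of -0.18 and -0.17 in MONO, -0.028 and -0.12 in TSW, and 0.24 and 0.23 in CO. Both CO libraries of RPMI8226 thus lay above its other libraries. Length balance and condition cannot be told apart there, and leaving out a library does not separate them.

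Promoters from RefSeq on GRCh38.p14 were at hand for 8 of the 9 genes (not HEY1), and the 250 bases before the start are printed for HES1, a gene lower in RPMI8226 under both stroma conditions, and ID3, a gene called in opposite directions in the lines. Capitals in HES1 (chr3:194135898-194136147, plus strand) mark every match, on either strand, to the RBPJ core TGGGAA, the N-box CACNAG bound by HES proteins, or the class C box CACGNG bound by HES and HEY proteins. CACGAG matches both of the latter motifs, so these overlap. Capitals in ID3 (chr1:23559502-23559751, minus strand) mark the one match to TTCNNNGAA, the gamma-activated site (GAS) letters bound by STAT factors.
HES1: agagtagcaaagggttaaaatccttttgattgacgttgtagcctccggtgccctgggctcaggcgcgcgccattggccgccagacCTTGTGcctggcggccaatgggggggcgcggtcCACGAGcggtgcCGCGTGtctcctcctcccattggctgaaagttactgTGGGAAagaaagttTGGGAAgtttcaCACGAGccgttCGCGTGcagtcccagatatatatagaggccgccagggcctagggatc
ID3: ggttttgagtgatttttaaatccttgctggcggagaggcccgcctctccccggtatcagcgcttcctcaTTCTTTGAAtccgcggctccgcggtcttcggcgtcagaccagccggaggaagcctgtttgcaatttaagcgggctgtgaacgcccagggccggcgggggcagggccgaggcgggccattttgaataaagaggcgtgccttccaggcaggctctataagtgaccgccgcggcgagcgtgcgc
The HES1 window held TGGGAA at 84 and 70 bases before the start, CACNAG at 165, 132 and 58, and CACGNG at 132, 120, 58 and 47. Among 35114 promoters of the same length, 20.8% held TGGGAA, 32% CACNAG and 26.7% CACGNG. The ID3 match lay at 181 bases, and 6.57% of promoters held TTCNNNGAA. Among the other genes, HES4 held TGGGAA at 76 bases, ID1 held CACNAG at 140, and NOTCH1 held GGCGCC, the GC-rich SMAD box, at 207, letters that 16.4% of promoters held. A match describes letters and not binding.

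HES6 (Entrez 55502, chr2:238238267-238240038), a relative known to oppose HES1, had the largest fold change of the 9 genes in MM.1S. Its RPKM was 12.0, 13.4 and 12.9 in MONO (157, 370 and 249 read pairs), 2.03, 1.76 and 1.73 in TSW (42, 39 and 33), and 1.32, 1.43 and 2.04 in CO (31, 32 and 41). All 3 MONO libraries lay far above the other 6, among which TSW and CO overlapped. The MONO mean of 12.8 ± 0.70 was 6.93 times the TSW mean and 7.97 times the CO mean, with log2 fold changes of -2.28 and -2.41 (SE 0.12). They were -2.32 and -2.45 without MONO replicate 1, and -2.16 in both after the correction for GC content and length. RPMI8226 had less, with 1.38 and 2.42 in MONO, 0.668 and 0.537 in TSW, and 0.126 and 0.256 in CO, the last from 3 and 7 read pairs. MONO, TSW and CO did not overlap there, but the mean of 0.897 was too low for HES6 to enter the RPMI8226 fit. With no filter on low values it was called lower in CO (-1.26, SE 0.21) and not in TSW (-0.83).

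HES4 (Entrez 57801, chr1:998964-1000097), a HES repressor that the mouse lacks, was listed at 0 in all 9 MM.1S libraries. Under the limit that a count of 0 allows, 3 read pairs per library, its RPKM there was at most 0.0731 to 0.155. In RPMI8226 it was 3.61 and 3.20 in MONO, 4.46 and 4.14 in TSW, and 2.31 and 2.92 in CO. TSW lay above MONO and MONO above CO with no overlap, though none of the 3 contrasts passed. The log2 fold changes were 0.27 in TSW and -0.29 in CO (SE 0.11), and -0.56 for CO against TSW. That last value passed without TSW replicate 2 (-0.60) or without CO replicate 2 (-0.68), by voom (-0.72) and with a pseudocount of 0.1 (-0.71). Without CO replicate 1 it was -0.44, and the value of CO against MONO was -0.17. After the correction for GC content and length, CO against TSW was -0.31 and CO against MONO was 0.030. The tables of the lines were normalized separately, so levels are compared between lines only as deposited.

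HEY1 (Entrez 23462), the HES relative most tied to Notch in blood vessels, had opposite patterns in the lines. In MM.1S its RPKM was 1.72, 1.59 and 1.29 in MONO, 0.598, 0.459 and 0.414 in TSW, and 0.650, 0.329 and 0.842 in CO. MONO lay above both other groups, which overlapped, and its mean was 3.12 times that of TSW and 2.52 times that of CO, although the mean of 0.877 kept HEY1 out of the MM.1S fit. With no filter on low values it was called lower in both, at -0.76 and -0.67 (SE 0.13). In RPMI8226 the libraries read 3.26 and 3.04 in MONO, 4.14 and 3.74 in TSW, and 5.28 and 4.27 in CO. CO lay above TSW and TSW above MONO, with log2 fold changes of 0.25 in TSW and 0.47 in CO (SE 0.11) that did not pass. The CO value passed without CO replicate 2 (0.60) and after a correction for GC content and length (0.69).

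ID3 (Entrez 3399, chr1:23557926-23559501), an E protein inhibitor of lymphocytes, moved in opposite directions in the lines. In MM.1S its RPKM was 23.2, 22.0 and 21.4 in MONO, 8.89, 10.3 and 9.59 in TSW, and 6.62, 9.47 and 8.23 in CO. The MONO libraries lay together above all the rest, and TSW and CO overlapped. With a MONO mean of 22.2 ± 0.908, the ratio was 2.32 to TSW and 2.74 to CO, and the log2 fold changes were -1.13 and -1.36 (SE 0.12). Without MONO replicate 1 these were -1.10 and -1.33, and the correction for GC content and length gave -1.03 and -1.15.

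RPMI8226 libraries had an ID3 RPKM of 6.60 and 7.03 in MONO, 21.6 and 27.3 in TSW, and 18.8 and 19.7 in CO. TSW lay above CO and CO above MONO, with no overlap. The TSW mean of 24.4 ± 4.02 was 3.59 times that of MONO (6.81 ± 0.308) and the CO mean of 19.3 ± 0.614 was 2.83 times, with log2 fold changes of 1.69 and 1.38 (SE 0.11), or 1.78 and 1.71 after the correction for GC content and length. CO against TSW was -0.32 and did not pass, at -0.16 without TSW replicate 2 and -0.065 after that correction.

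ID2 (Entrez 3398, chr2:8682056-8684461), which is needed for innate lymphoid cells, was lower with stroma in MM.1S. Its MM.1S RPKM was 17.3, 12.3 and 12.9 in MONO, 5.86, 5.35 and 5.03 in TSW, and 4.51, 4.83 and 5.99 in CO. MONO lay above TSW and CO, which overlapped, and the MONO mean of 14.2 ± 2.70 was 2.61 times the TSW mean and 2.77 times the CO mean. The log2 fold changes were -1.23 and -1.30 (SE 0.14), or -1.09 and -1.16 without MONO replicate 1. RPMI8226 libraries had 49.9 and 46.4 in MONO, 45.2 and 39.6 in TSW, and 61.2 and 56.3 in CO, the highest levels of the 9 genes. CO lay above MONO and MONO above TSW, and the log2 fold changes of -0.18 in TSW and 0.28 in CO (SE 0.084) did not pass. The correction for GC content and length gave -0.0075 and 0.51, and the CO value was 0.40 under median-of-ratios scaling and 0.43 under quantile normalization. In the annotation ID2 shares 145 exon bases with ID2-AS1, a noncoding RNA of the other strand that the tables do not list.

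ID1 (Entrez 3397, chr20:31605289-31606510), the ID gene most used as a readout of BMP signals, overlapped between all 3 conditions of MM.1S. Its RPKM there ran from 5.26 to 8.28 in MONO, from 5.23 to 6.24 in TSW and from 4.53 to 6.29 in CO, with log2 fold changes of -0.21 and -0.23 (SE 0.15). Without MONO replicate 1 they were -0.066 and -0.090, and the correction for GC content and length gave -0.10 and -0.0085. In RPMI8226 it was 0.520 and 0.383 in MONO, 0.787 and 0.859 in TSW, and 0.746 and 0.561 in CO, on 7 to 19 read pairs. TSW lay above CO and CO above MONO, but the mean of 0.643 kept ID1 out of the RPMI8226 fit.

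**Figure D2:**
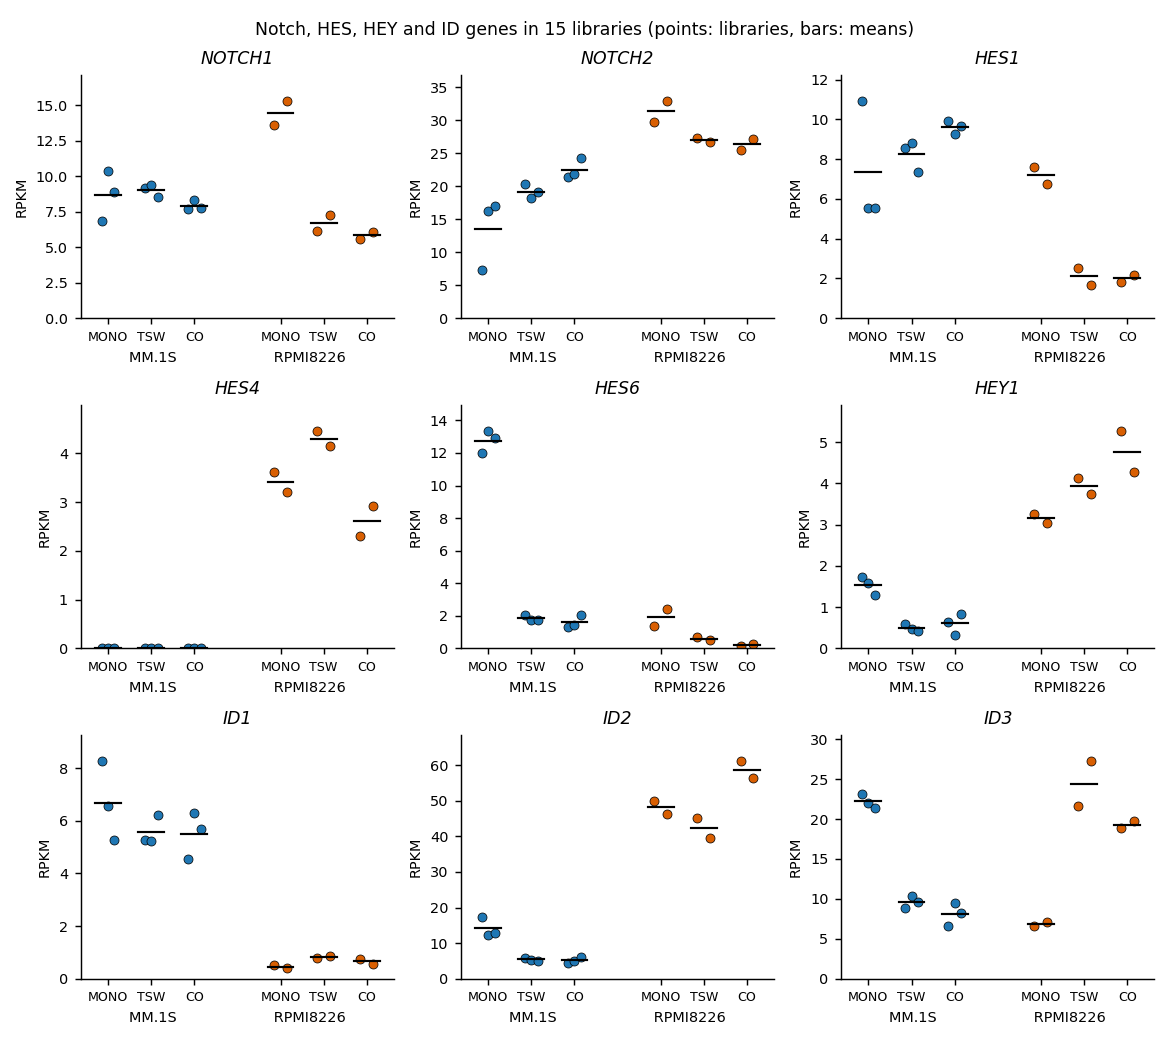
RPKM of the 9 genes, one point for each of the 15 libraries and a bar for each mean, by condition and line. HES6, ID2 and ID3 are highest in MONO of MM.1S, NOTCH1 and HES1 in MONO of RPMI8226, and ID3 of RPMI8226 is lowest in MONO.

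In the plot of levels by library, HES6, HEY1, ID2 and ID3 in MM.1S and NOTCH1, HES1 and HES6 in RPMI8226 had every MONO library above every stroma-exposed library, as did NOTCH2 in RPMI8226. The same held for 16.5% of all genes tested in MM.1S and 42.1% in RPMI8226. NOTCH2 in MM.1S and HEY1, ID1 and ID3 in RPMI8226 had every MONO library at the bottom, as had 18.8% and 30.3% of all genes tested.

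The first question of the design is what stromal soluble factors do, which TSW against MONO addresses. A gene was called when its adjusted p was under 0.05 and its fold change over 1.5 in limma, among the 10153 genes of MM.1S and 10319 of RPMI8226 whose mean RPKM reached 1, and 7 of the 9 genes entered each fit. In MM.1S, 3 of the 7 were lower (HES6, ID2 and ID3), beside 4.16% of all genes tested. By limma 0 were higher, beside 6.48% of all, while 4 of the 7 had an unadjusted p under 0.05 in either direction and voom called 3. In RPMI8226, ID3 was higher (1 of 7), beside 14.5% of all genes, and NOTCH1 and HES1 were lower (2 of 7), beside 17.9%. At an unadjusted p under 0.05 there were 6 of the 7 in RPMI8226, and in CO against MONO 4 of 7 in MM.1S and 7 of 7 in RPMI8226. The shares of all genes at that p, or called by voom, are not given. Such counts, here and below, therefore have no background beside them. Since the genes were selected with these contrasts in view, nothing is read from the counts.

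CO against MONO adds contact with the stromal cells and shares its MONO libraries with TSW against MONO. In MM.1S, NOTCH2 was higher (1 of 7), beside 7.13% of all genes tested, and HES6, ID2 and ID3 were lower (3 of 7), beside 4.65%. NOTCH2 lost its call without MONO replicate 1 (0.41), where HES1 gained one (0.70), and also without CO replicate 1 (0.81), 2 (0.80) or 3 (0.72), with no filter on low values and with only the 2 conditions compared. In RPMI8226, ID3 was higher (1 of 7), beside 16.4%, and NOTCH1 and HES1 were lower (2 of 7), beside 22.9%. Under median-of-ratios scaling the share of called genes that were higher went from 44.7% to 52.1% in TSW and from 41.7% to 51.5% in CO of RPMI8226.

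CO against TSW asks what contact adds to soluble factors. By limma 0 of the 7 genes were called in MM.1S, where 0.374% of all genes were higher and 0.0394% lower, and 0 had an unadjusted p under 0.05 and voom called 0. By limma 0 of the 7 were called in RPMI8226 too, beside 1.9% of all genes higher and 2.39% lower by the same rule. Of the 7, 3 had an unadjusted p under 0.05 and voom called 1 (HES4, log2 fold change -0.72). No share of all genes is given for either count, so nothing is read from them. HES4 was also called without TSW replicate 2 (-0.60) or CO replicate 2 (-0.68).

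**Figure D3:**
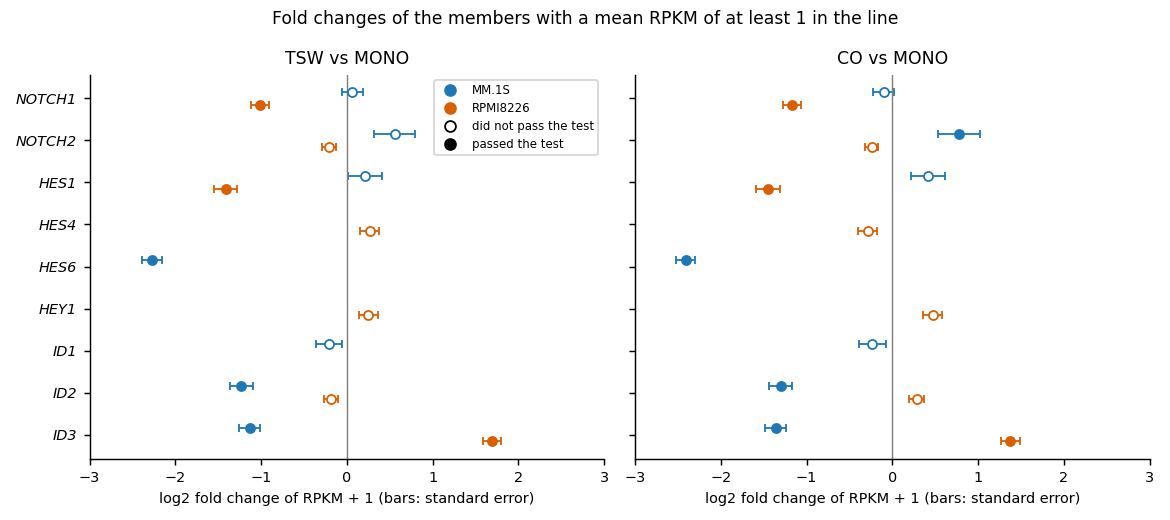
Log2 fold changes of RPKM + 1 with standard errors, for TSW against MONO and CO against MONO, in the genes whose mean RPKM reached 1 in the line (filled points passed the thresholds). HES6 of MM.1S is the lowest at -2.28 and -2.41, and ID3 of RPMI8226 the highest at 1.69 and 1.38.

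The fold change plot sets ID3 on opposite sides of 0 in the lines, and NOTCH1 and HES1 to the left of 0 in RPMI8226 with MM.1S near 0 or to its right. For the 9 genes this difference between lines was not tested. Over all genes tested, the median log2 fold change in TSW and CO was 0.014 and 0.0053 in MM.1S and -0.079 and -0.094 in RPMI8226.

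The 115 other genes of the Notch, bHLH and BMP pathways were taken as 11 lists, of which 68 genes were tested in MM.1S and 75 in RPMI8226. These lists were also chosen with earlier results of these data known. Their shares and adjusted p values are therefore a description and not an independent test of the pathways. In MM.1S, 7 were higher and 4 lower in TSW (16.2% of those tested, beside 10.6% of all genes), 10 higher and 3 lower in CO (19.1%, beside 11.8%), and 1 higher and 1 lower in CO against TSW (2.94%, beside 0.414%). In RPMI8226, 10 were higher and 13 lower in TSW (30.7%, beside 32.5% of all genes) and 15 each way in CO (40%, beside 39.3%), a balance that turned to 13 and 12 in TSW and 21 and 11 in CO under median-of-ratios scaling, and to 12 and 12, and 22 and 12, under quantile normalization. CO against TSW in RPMI8226 had 2 higher and 1 lower (4%, beside 4.29%). The counts of single lists, given below, are to be read beside these shares of all genes. The calls in CO against TSW of MM.1S were GREM1 and CDKN1A, and GREM1 was also called in RPMI8226. GREM1 was at 0 in every MONO and TSW library, so it entered the fits only through CO. The CDKN1A call was lost in 7 of the alternative settings. Medians of the log2 fold change over the lists, in the order TSW, CO and CO against TSW, were 0.099, 0.10 and 0.038 in MM.1S and 0.045, 0.12 and 0.025 in RPMI8226. In each gene called, every library of one group lay beyond every library of the other, 3 of 3 in MM.1S and 2 of 2 in RPMI8226. The calls were made on these same libraries, so these library counts, also where printed below, describe the call and add no support to it.

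Notch ligands numbered 7, with 1 tested in MM.1S and 3 in RPMI8226. JAG2, the Jagged ligand known from myeloma cells, was lower in RPMI8226, with a mean of 12.0 ± 0.425 in MONO, 3.88 ± 0.351 in TSW and 2.61 ± 0.334 in CO. Its log2 fold changes were -1.42 (SE 0.10, adjusted p = 1e-06) and -1.85 (adjusted p = 1.04e-07), lower in 2 of 2 libraries each. DLL4, the Delta-like ligand of sprouting vessels, was also lower in RPMI8226, at 5.45 in MONO, 2.47 in TSW and 2.51 in CO (-0.89 and -0.88, adjusted p = 3.01e-05 and 2.64e-05). JAG1, the ligand with the highest mean over all 15 libraries, though under JAG2 in MONO of RPMI8226, was higher in CO of MM.1S, at 10.1 ± 0.679 against 5.96 ± 1.55 in MONO (0.69, SE 0.15, adjusted p = 0.0061, 3 of 3 libraries). That call was lost without MONO replicate 1 (0.50), and TSW gained a call without MONO replicate 2 (0.64). JAG1 in RPMI8226 had means of 7.15, 5.99 and 5.42 and did not pass. NOTCH3 and NOTCH4, the other receptors, were too low to test, NOTCH4 having its highest mean, 0.970, in CO of MM.1S.

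Enzymes that glycosylate or cleave the receptors numbered 14, with 12 tested in each line. In MM.1S limma called 0 of them in TSW, CO and CO against TSW (4, 3 and 0 had an unadjusted p under 0.05, and voom called 0, 1 and 0). RPMI8226 had 2 higher and 1 lower in TSW and 2 higher and 3 lower in CO. MFNG, a fringe that extends sugars on Notch, was lower in RPMI8226, at 68.3 ± 2.53 in MONO, 41.6 ± 1.80 in TSW and 28.8 ± 1.86 in CO (-0.70 and -1.22, SE 0.076, adjusted p = 1.64e-05 and 2.26e-07, 2 of 2 libraries each). In MM.1S its means were 96.9, 67.2 and 64.5, and the CO value of -0.58 did not pass. It was called there without MONO replicate 3 (-0.64), CO replicate 2 (-0.64) or CO replicate 3 (-0.59), and with a pseudocount of 0.1, median-of-ratios scaling or voom (-0.59 each). FURIN, which makes the first cleavage of Notch, was higher in RPMI8226, at 11.8, 20.1 and 22.4 (0.71 and 0.87, adjusted p = 0.000131 and 2.36e-05), and its TSW call was lost without TSW replicate 2 (0.56). PSENEN, a subunit of gamma-secretase, was higher in TSW of RPMI8226 (0.66, adjusted p = 1.08e-05). Its CO value of 0.53 did not pass, but did under median-of-ratios scaling (0.65), quantile normalization (0.67) and the correction for GC content and length (0.88).

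Also in RPMI8226, POFUT1, which fucosylates Notch, was lower in CO (-0.66, adjusted p = 3.67e-05), and so was the gamma-secretase subunit APH1A (-0.59, adjusted p = 6.14e-05), the most abundant gene of that list. Both fell short of the thresholds under the other scalings and after the correction for GC content and length, with values from -0.55 to -0.57 for POFUT1 and -0.31 to -0.47 for APH1A. APH1A was also lost without MONO replicate 2 (-0.57) or CO replicate 1 (-0.49), and in MM.1S it was called lower in CO without MONO replicate 3 (-0.60). NCSTN, a further subunit, was higher in CO (0.63, adjusted p = 2.98e-05), and was named after its values were seen.

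The nuclear complex of RBPJ with its coactivators and corepressors made a list of 15 genes, 12 tested in MM.1S and 13 in RPMI8226. MM.1S had 1 higher and 1 lower in both TSW and CO, and RPMI8226 had 1 higher and 1 lower in TSW and 3 higher and 1 lower in CO. TLE4, a Groucho corepressor recruited by HES proteins, was higher in both lines, at 0.370, 1.30 and 1.35 in MONO, TSW and CO of MM.1S (0.75 and 0.78, adjusted p = 0.000964 and 0.00076, 3 of 3 libraries each) and 2.54, 5.53 and 6.11 in RPMI8226 (0.88 and 1.0, adjusted p = 1.41e-05 and 4.01e-06, 2 of 2 each). With a MONO mean under 1, TLE4 entered the MM.1S fit only through TSW and CO, where it was higher. TLE1, its relative, was lower in MM.1S, at 5.01, 2.84 and 2.61 (-0.65 and -0.73, adjusted p = 0.00245 and 0.00111). The TLE1 call in TSW was lost without MONO replicate 2 (-0.56) or TSW replicate 3 (-0.57), and after the correction for GC content and length (-0.57). The acetyltransferase KAT2B (0.97, adjusted p = 4.76e-06) and CIR1, which links RBPJ to corepressors (0.76, adjusted p = 2.41e-05), were higher in CO of RPMI8226. KAT2B was called in TSW too without TSW replicate 2 (0.63), and with a pseudocount of 0.1, under both other scalings, by voom and after the correction for GC content and length (0.59 to 0.65). CIR1 was called in TSW after that correction (0.64). In MM.1S, KAT2B was called higher in TSW and CO without MONO replicate 2 (0.63 and 0.67) or 3 (0.64 and 0.68), and in CO without CO replicate 2 (0.60), with a pseudocount of 0.1 (0.61) and by voom (0.60). TLE3, the most abundant gene of the list, did not pass in either line, with means of 45.9, 55.5 and 62.7 in MM.1S and 32.7, 37.7 and 35.7 in RPMI8226.

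Ubiquitin ligases and trafficking regulators numbered 15, with 10 tested in MM.1S and 12 in RPMI8226. DTX3L, a Deltex relative, was the 1 called in MM.1S, at 9.07 ± 2.02 in MONO, 18.9 ± 0.534 in TSW and 22.8 ± 0.370 in CO (1.0 and 1.26, adjusted p = 0.000318 and 5.91e-05, 3 of 3 libraries each). It was higher in RPMI8226 too, at 12.8, 38.0 and 44.1 (1.5 and 1.71, adjusted p = 2.05e-07 and 5.83e-08, 2 of 2 each). RPMI8226 had 2 higher and 1 lower in TSW and 3 higher and 2 lower in CO. NUMB, an inhibitor of Notch, was higher (0.62 in both, adjusted p = 5.11e-05 and 3.98e-05). NUMBL, its relative, was lower (-0.62 and -0.79, adjusted p = 0.000368 and 4.97e-05). The NUMBL call in TSW was lost without TSW replicate 1 (-0.51), under both other scalings (-0.55 and -0.58) and after the correction for GC content and length (-0.54). NEURL3, a Neuralized relative, was lower in CO (-0.68, adjusted p = 0.000769), a call lost without CO replicate 1 (-0.51) and after that correction (-0.40). In TSW it was called without TSW replicate 1 (-0.59), with a pseudocount of 0.1 (-0.72) and by voom (-0.75). MIB1, the ligase that drives ligand uptake, was higher in CO (0.66, adjusted p = 5.68e-05), and was named after its values were seen.

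Other HES and HEY relatives numbered 9, with 4 tested in MM.1S and 3 in RPMI8226, and BHLHE40 was the 1 called in each line. BHLHE40, a bHLH repressor of the clock and of immune cells, had an RPKM of 5.67 ± 0.512, 35.7 ± 0.508 and 37.4 ± 1.24 in MONO, TSW and CO of MM.1S (SD, n = 3), and 7.80 ± 0.357, 77.5 ± 0.513 and 78.3 ± 1.79 in RPMI8226 (n = 2). Its log2 fold changes were 2.46 and 2.53 in MM.1S (SE 0.086, adjusted p = 2.48e-08 and 7.46e-09, 3 of 3 libraries each) and 3.16 and 3.17 in RPMI8226 (SE 0.070, adjusted p = 2.65e-10 and 2.79e-10, 2 of 2 each).

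Textbook Notch targets other than the HES and HEY genes numbered 9, with 3 tested in MM.1S and 5 in RPMI8226. RPMI8226 had 1 higher and 3 lower in both TSW and CO, where 32.5% and 39.3% of all genes tested were called in either direction. MYC, a direct Notch target in T cell leukaemia, had means of 384, 159 and 132 in MONO, TSW and CO of RPMI8226 (-1.27 and -1.53, SE 0.066, adjusted p = 9.92e-08 and 2.05e-08, lower in 2 of 2 libraries each) and 373, 359 and 372 in MM.1S, where it did not pass. CCND1, the gene of cyclin D1, was lower in RPMI8226, at 12.7, 3.69 and 3.97 (-1.54 and -1.46, adjusted p = 5.97e-07 in each). NRARP, a feedback inhibitor of Notch, was lower as well, at 11.9, 5.00 and 4.59 (-1.10 and -1.21, adjusted p = 3.02e-06 and 1.08e-06), and was named after its values were seen.

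CDKN1A, the gene of the cell cycle inhibitor p21, was the target called higher in both lines. Its means were 19.4 ± 2.19, 96.9 ± 5.75 and 60.1 ± 8.91 in MONO, TSW and CO of MM.1S (2.27 and 1.58, SE 0.12, adjusted p = 4.87e-07 and 5.54e-06, 3 of 3 libraries each) and 4.65, 22.0 and 22.4 in RPMI8226 (2.03 and 2.05, adjusted p = 2.32e-08 and 1.61e-08, 2 of 2 each). In MM.1S it was lower in CO than in TSW (-0.69, adjusted p = 0.0353, 3 of 3 libraries). That call was lost without TSW replicate 1 (-0.72), 2 (-0.64) or 3 (-0.70), without CO replicate 1 (-0.59) or 3 (-0.68), and with no filter on low values or a minimum RPKM mean of 5.

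ID4 and the E proteins, which ID proteins bind, numbered 4, with 3 tested in each line. TCF3, the gene of E2A, was lower in both lines, at 42.8 ± 3.01, 27.1 ± 0.220 and 26.2 ± 2.15 in MM.1S (-0.64 and -0.69, SE 0.091, adjusted p = 0.000541 and 0.0003, 3 of 3 libraries each) and 22.9, 11.7 and 10.7 in RPMI8226 (-0.92 and -1.03, adjusted p = 9.31e-06 and 2.91e-06, 2 of 2 each). The MM.1S calls of TCF3 were lost after the correction for GC content and length (-0.56 and -0.58). TCF4, the E protein gene with the highest mean over all 15 libraries, though under TCF3 in MM.1S, was lower in TSW of MM.1S, at 14.8 against 24.8 (-0.71, adjusted p = 0.000359), with -0.54 in CO that did not pass, or passed at -0.62 without CO replicate 1 and at -0.94 after the correction for GC content and length. TCF12 was called higher in MM.1S (0.66 and 0.69, adjusted p = 0.0407 and 0.0321), from MONO libraries between 3.46 and 7.78. Without MONO replicate 1 its values were 0.34 and 0.37 and neither was called. The TSW call of TCF12 was also lost without any 1 of the TSW libraries (0.65 to 0.68) or CO libraries (0.66), and the CO call without any 1 of the CO libraries (0.66 to 0.72). Both were lost after the correction for GC content and length (0.47 and 0.43), with no filter on low values and with only the 2 conditions compared.

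BMP and transforming growth factor beta (TGF-beta) ligands and antagonists numbered 14, with 5 tested in MM.1S and 4 in RPMI8226. INHBE, the gene of an activin subunit and a target of stress signalling, was higher in both lines, at 0.398, 6.27 and 3.94 in MONO, TSW and CO of MM.1S (2.38 and 1.82, SE 0.13, adjusted p = 5.33e-07 and 3.32e-06, 3 of 3 libraries each) and 0.402, 24.2 and 17.6 in RPMI8226 (4.13 and 3.69, SE 0.25, adjusted p = 2.5e-07 and 3.73e-07, 2 of 2 each). GDF15, a TGF-beta relative induced by stress, was higher in MM.1S, at 0.280, 2.23 and 1.40 (1.32 and 0.91, adjusted p = 8.72e-05 and 0.0011). With MONO means under 1, GDF15 in MM.1S and INHBE in both lines entered the fits only through TSW and CO. TGFB1, the most abundant gene of the list, was lower in MM.1S, at 19.7, 10.3 and 10.9 (-0.86 and -0.79, adjusted p = 0.000435 and 0.000776), and in RPMI8226, at 39.7, 24.8 and 25.7 (-0.66 and -0.61, adjusted p = 6.68e-05 and 9.22e-05). In RPMI8226 the TGFB1 call was lost in TSW without TSW replicate 1 (-0.57) and in CO without CO replicate 2 (-0.54), under both other scalings (-0.50 and -0.47) and after the correction for GC content and length (-0.36).

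BMP7, a ligand that drives ID genes in many cells, was lower in RPMI8226, at 14.3 ± 0.134, 5.71 ± 0.462 and 3.39 ± 0.391 (-1.20 and -1.81, SE 0.098, adjusted p = 2.49e-06 and 9.08e-08, 2 of 2 libraries each). It was lower in CO than in TSW as well (-0.61, adjusted p = 0.00201), a call lost without TSW replicate 2 (-0.54) or CO replicate 1 (-0.52), with no filter on low values, under median-of-ratios scaling (-0.58) and after the correction for GC content and length (-0.50). GREM1, a secreted BMP antagonist, was listed at 0 in every MONO and TSW library of both lines. In CO it was 5.96, 6.61 and 6.28 in MM.1S and 3.10 and 5.07 in RPMI8226. Against the limit of 3 read pairs per library this was at least 78.7-fold higher than MONO and at least 115-fold higher than TSW in MM.1S, and at least 70.8-fold and at least 102-fold higher in RPMI8226. INHBA and FST were likewise at 4 read pairs or fewer in every MONO and TSW library and at 24 to 72 in CO of both lines, and were named after their values were seen. Of 25 stromal markers, 9 in MM.1S and 8 in RPMI8226 were also at 0 in MONO and TSW and above 0 in every CO library. MMP1, MMP2, TFPI2, COL1A2 and COL3A1 were so in both lines, with a mean RPKM in CO of 2.77 to 44.2. Other markers were not, and POSTN was at 0 throughout. From MONO to CO, the mean of IGFBP7 in MM.1S went from 2.63 to 0.326. In RPMI8226, IGFBP3 went from 28.5 to 9.54 and FN1 from 4150 to 2088. Whether GREM1, INHBA and FST in CO came from stromal RNA was not tested.

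BMP and TGF-beta receptors numbered 13, with 8 tested in each line. By limma 0 were called in MM.1S in TSW, CO and CO against TSW (5, 4 and 0 had an unadjusted p under 0.05, and voom called 0, 1 and 0). RPMI8226 had 2 higher and 1 lower in TSW and 1 each way in CO. ACVR1, a type I receptor for BMPs, was higher, at 3.75, 7.26 and 9.46 (0.80 and 1.14, SE 0.10, adjusted p = 6.87e-05 and 3.7e-06, 2 of 2 libraries each). TGFBR3, a coreceptor, was lower, at 2.79, 0.486 and 0.492 (-1.35 and -1.34, adjusted p = 1.58e-06 and 1.15e-06). It entered the RPMI8226 fit only through MONO. BAMBI, a decoy receptor, was higher in TSW (0.62, adjusted p = 0.000417), a call lost without TSW replicate 1 (0.54), and in CO it was called only after the correction for GC content and length (0.65). TGFBR2, a TGF-beta receptor and the gene of the list with the highest mean over all libraries, was called in neither line, but was called lower in MM.1S without MONO replicate 1 (-0.66 and -0.73) and by voom in CO (-0.59). In RPMI8226 it was called higher without MONO replicate 2 (0.62 and 0.71) or, in CO, CO replicate 2 (0.63), with a pseudocount of 0.1 or voom (0.60 in TSW and 0.69 in CO by each), and in CO under both other scalings (0.68 and 0.62) and the correction for GC content and length (0.66).

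SMADs and their regulators numbered 13, with 10 tested in MM.1S and 12 in RPMI8226. SKIL, a corepressor of SMADs, had means of 14.6, 4.46 and 10.0 in MONO, TSW and CO of RPMI8226. It was lower in TSW than in MONO (-1.52, SE 0.089, adjusted p = 2.23e-07, 2 of 2 libraries) and higher in CO than in TSW (1.01, adjusted p = 7.08e-05, 2 of 2). CO against MONO was -0.50 and passed only after the correction for GC content and length (-0.78). In MM.1S its means were 7.16, 4.47 and 6.86, and the TSW value of -0.57 did not pass. It was called there without MONO replicate 1 (-0.72) or TSW replicate 3 (-0.68), and with a pseudocount of 0.1, quantile normalization, voom or that correction (-0.64 to -0.82). SMAD1, a carrier of BMP signals (0.74, adjusted p = 2.1e-05), and TGIF1, a corepressor (0.78, adjusted p = 5.86e-05), were higher in CO of RPMI8226. In TSW, TGIF1 was called with a pseudocount of 0.1 (0.76), by voom (0.80) and after the correction for GC content and length (0.59). SMAD5, the most abundant of the list, was called higher in CO of MM.1S (0.59, adjusted p = 0.0346, 3 of 3 libraries). That call was lost without MONO replicate 1 (0.34), TSW replicate 2 (0.59), or CO replicate 1 (0.53), 2 (0.66) or 3 (0.59). It was also lost after the correction for GC content and length (0.27), under quantile normalization (0.55), with no filter on low values and with only the 2 conditions compared. In TSW it was called without MONO replicate 3 (0.68).

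**Figure D4:**
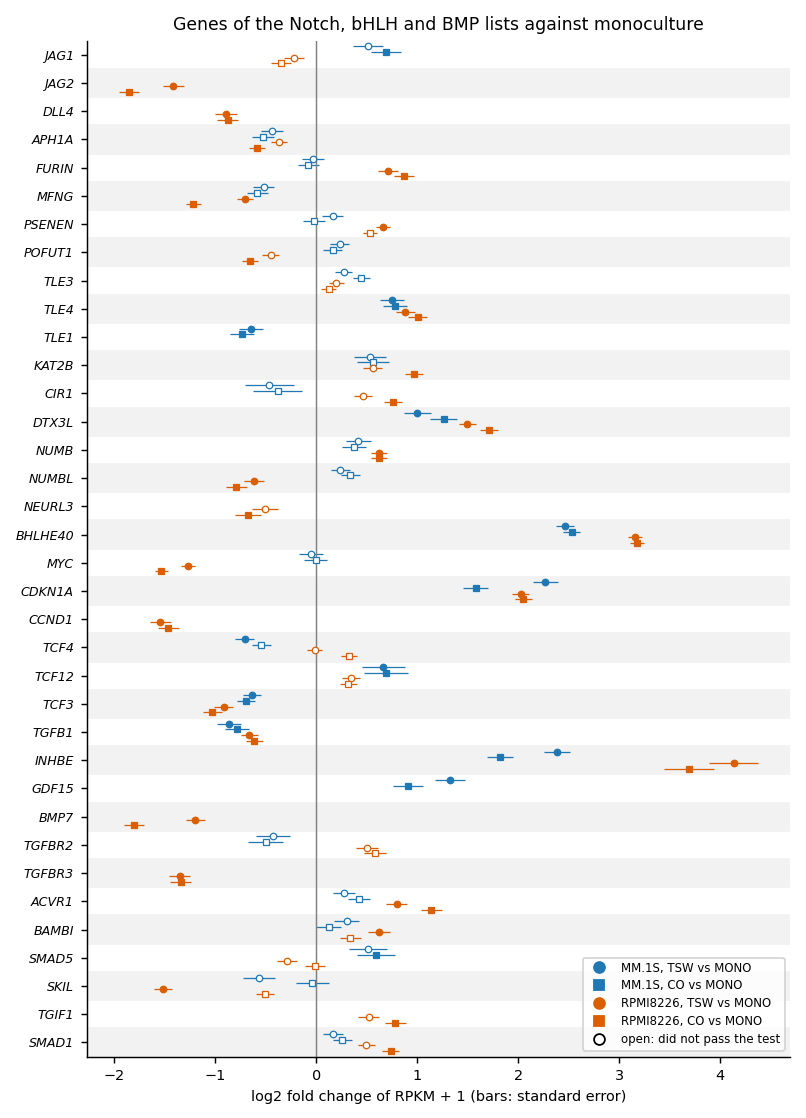
Log2 fold changes of RPKM + 1 against MONO with standard errors, for named genes of the pathway lists in both lines (filled points passed the thresholds). BHLHE40, CDKN1A and INHBE lie to the right in both lines, while JAG2, MYC and CCND1 lie to the left in RPMI8226.

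The plot of pathway genes also shows the genes on which the lines part. A joint limma fit tested the difference of the fold changes between lines in 60 of the 115 genes. For TSW against MONO, 2 of the 60 differed by over 1 on the log2 scale, beside 9.03% of the 9397 genes tested in both lines. These were MYC (-1.22 in RPMI8226 minus MM.1S, SE 0.15, adjusted p = 4.13e-05) and INHBE (1.75, SE 0.31, adjusted p = 0.000573). For CO against MONO, 6 of the 60 differed, beside 12.5% of all. MYC (-1.53, adjusted p = 3.87e-06), INHBE (1.87, adjusted p = 0.000232) and NUMBL (-1.13, adjusted p = 1.71e-05) were among them, MYC and NUMBL lower in 2 of 2 CO libraries of RPMI8226 and INHBE higher in all CO libraries of both lines.

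JAG1 (-1.04, adjusted p = 0.00109), TGFBR2 (1.08, adjusted p = 0.00251), and CIR1 (1.14, adjusted p = 0.013) also differed between the lines in CO. Each lay near the threshold of 1, and its call was lost in some of the fits with 1 library left out. JAG1 was above MONO in 3 of 3 CO libraries of MM.1S and under it in 2 of 2 of RPMI8226, TGFBR2 and CIR1 above it in 2 of 2 of RPMI8226. The JAG1 difference fell under 1 without MM.1S MONO replicate 1 (-0.84), MM.1S CO replicate 2 (-1.0) or RPMI8226 CO replicate 1 (-0.94), and the TGFBR2 difference without MM.1S MONO replicate 3 (0.90) or RPMI8226 MONO replicate 1 (0.96). CIR1 lost its call without MM.1S MONO replicate 1 (0.76) or RPMI8226 CO replicate 1 (1.02, adjusted p = 0.0601).

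CO libraries held HS5 cells in the culture, so 25 stromal marker genes were read in each library beside the CO values. In MM.1S their summed RPKM was 14.8 to 18.8 in MONO, 13.1 to 14.4 in TSW and 167 to 196 in CO, with MMP1 the most abundant in CO (41.0 to 46.9) and IGFBP3 elsewhere. RPMI8226 itself expressed FN1 at 1678 to 4310, and without FN1 its sums were 15.7 to 35.1 in MONO and TSW and 141 and 205 in CO. Of the markers tested, 12 of 15 in MM.1S and 10 of 12 in RPMI8226 were higher in CO than in MONO. By the same rule 1 and 2 were lower. Of all genes tested, 7.13% and 16.4% were higher there, and 4.65% and 22.9% lower. CO exceeded TSW in 13 and 8 of the markers, beside 0.374% and 1.9% of all genes. Among the 25, 9 markers in MM.1S and 8 in RPMI8226 were at 0 in every MONO and TSW library and above 0 in every CO library. Those of them that were tested entered the fits only through CO, so nothing is read from their calls. TSW against MONO had 0 higher by limma (3 had an unadjusted p under 0.05 in either direction, and voom called 1 higher) and 1 lower in MM.1S, and 2 each way in RPMI8226. POSTN was at 0 in every library of both lines, COL6A3 and TIMP3 also in RPMI8226.

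THY1, the gene of CD90, had a mean RPKM of 0.0283, 0.00975 and 0.504 in MONO, TSW and CO of MM.1S, and 0.0475, 0 and 0.0939 in RPMI8226, on 1 to 55 read pairs in a condition where above 0. CD38 had 55.0, 48.9 and 59.0 in MM.1S and 16.0, 45.8 and 53.0 in RPMI8226. Among 12 plasma cell markers, 10 were tested in MM.1S, with 3 higher and 2 lower in TSW and 2 each way in CO. In RPMI8226, 9 were tested, with 6 higher and 2 lower in each. Of all genes tested, 10.6% and 11.8% were called in TSW and CO of MM.1S, and 32.5% and 39.3% in RPMI8226. JCHAIN was the most abundant in every library. In MM.1S the summed RPKM of that list was 5008 to 5936 in MONO, 3953 to 4086 in TSW and 3584 to 3907 in CO. In RPMI8226 it was 2486 and 2401 in MONO, 4456 and 4275 in TSW, and 4540 and 4462 in CO. The study reports a minimal level of HS5 among the myeloma cells sorted from the lower chamber. It left out genes highly expressed in HS5 and silent in myeloma cells, a step not taken here. The part of stromal RNA in the CO values of NOTCH2, HEY1, JAG1, GREM1, INHBA and FST was not tested.

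**Figure D5:**
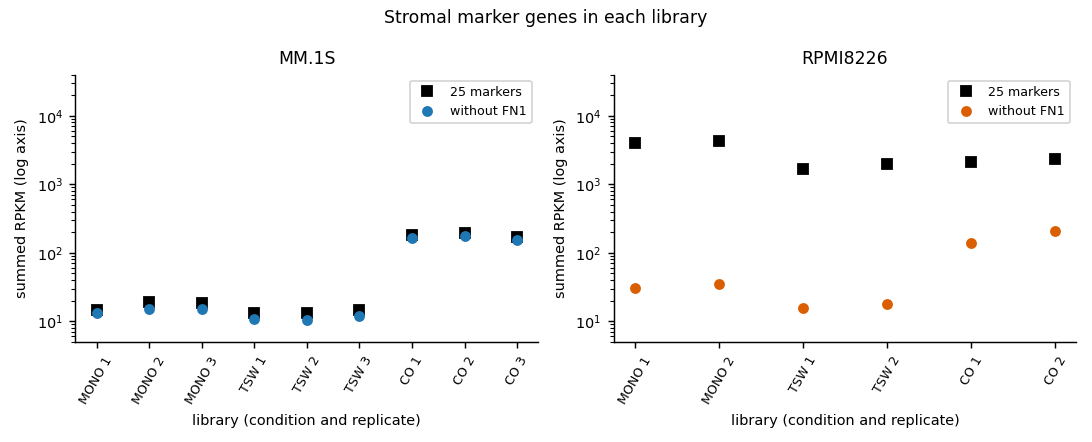
Summed RPKM of the 25 stromal markers, with and without FN1, in each library on a log axis. CO libraries of MM.1S sum to 167 to 196, above the other libraries at 13.1 to 18.8, and RPMI8226 without FN1 reaches 141 and 205 in CO.

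The marker plot shows that the stromal sums without FN1 are higher in every CO library than in the other libraries of the line. For the 9 genes, CO and TSW libraries of MM.1S overlapped except for NOTCH1, NOTCH2 and HES1, and for HES4 at 0. In RPMI8226 the CO libraries lay apart from TSW for NOTCH1, HES4, HES6, HEY1, ID1, ID2 and ID3, and 65.3% of all genes tested there did the same, against 16.3% in MM.1S.

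The genes most like each member across the 15 libraries were found by the root mean square difference of log2(RPKM + 1), centred within each line, over 9396 genes, for the 5 members tested in both lines. NOTCH1 was nearest to ZNF544 (0.0964), PPRC1 (0.0967) and FAM171A1 (0.0969), where the median gene was at 0.372. NOTCH2 was nearest to AGO2 (0.0863), UBE4A (0.104) and RC3H2 (0.104), against a median of 0.414. HES1 was nearest to MMACHC (0.192), CCDC34 (0.20) and RAC3 (0.201), with a median of 0.507. For ID2 the nearest were CHMP4B (0.142), ITM2C (0.179) and TNFAIP8 (0.193), against 0.552, and those reported for ID3 were GMFG (0.235) and LY86 (0.254), against 0.730.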

How the data were processed

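The 15 libraries of MM.1S (3 per condition) and RPMI8226 (2 per condition) were deposited as 1 table for each line, and the lines were normalized separately. The submitters' notes name Subread and featureCounts on RefSeq genes (hg38). The values are log2(RPKM + 1) + 0.0001, as deposited by the authors, who tested counts with edgeR. The offset was subtracted, the log2 undone, and exon lengths and read pairs were recovered together as the whole numbers that fit the RPKM values, with 100% of the values above 0 within 0.05 of a whole pair. Of the 20468 genes, 20407 matched a RefSeq symbol by Entrez ID and 61 did not. Positions are from RefSeq on GRCh38.p14, and exon lengths are those of the gene models behind the tables, which can differ (HES4 has 2153 exon bases, more than its printed interval spans). 0 columns of values were left unused.

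Each line was fitted on its own with limma 3.58.1 (R 4.3.3, mean-variance trend) on log2(RPKM + 1), for genes whose mean RPKM reached 1. Fold changes on this scale understate change in genes of low RPKM. P values were adjusted by Benjamini-Hochberg over all genes tested in a comparison, and a gene was called where its fold change passed 1.5 at an adjusted p under 0.05. Fold changes of the lines were compared in a joint limma fit, with an adjusted p under 0.05 and a difference over 1. A level of 0 was bounded at 3 read pairs per library, and such limits cover counting error only. The fit was tested on simulated data with known changes. Python 3.11.15, numpy 2.4.6, pandas 2.3.3 and matplotlib 3.10.9 were used otherwise.

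The 9 genes and the lists (11 of pathway genes, stromal markers and plasma cell markers) were chosen with earlier results of these data known. Named were all 9 genes, the most abundant gene of each pathway list, and up to 3 called genes of each list and comparison with the largest absolute log2 fold change. Genes withheld for evaluation were counted but are not reported here by name. The alternatives were a pseudocount of 0.1, no filter, a mean RPKM of 5, median-of-ratios scaling, quantile normalization, a replicate block, only the 2 conditions compared, no fold change threshold, voom on the recovered read pairs, a loess correction for GC content and length (98.8% of the tested genes had a GC value), and each library left out in turn.

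The labels do not say that replicates are separate cultures, so p measures the spread between these samples.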

Additional observations from a re-analysis of the deposited data

Results flagged for a closer look

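Some of the 9 genes had log2 fold changes of opposite sign in the lines, and these differences were not tested. NOTCH2 had 0.56 in MM.1S and -0.21 in RPMI8226 in TSW against MONO, and 0.78 and -0.24 in CO against MONO. HEY1 had -0.76 and 0.25 in TSW and -0.67 and 0.47 in CO, the MM.1S values from the fit with no filter on low values. ID2 had -1.30 and 0.28 in CO. HES1 had 0.21 and -1.41 in TSW and 0.41 and -1.45 in CO, and NOTCH1 had 0.065 and -1.01 in TSW, where the MM.1S value was -0.076 without MONO replicate 1 and -0.0022 under quantile normalization. ID1 had -0.21 and 0.33 in TSW and -0.23 and 0.19 in CO, the RPMI8226 values from the fit with no filter. ID3 had -1.13 and 1.69 in TSW and -1.36 and 1.38 in CO.

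The joint fit tested the pathway genes, as RPMI8226 minus MM.1S. In TSW against MONO, MYC differed by -1.22 and INHBE by 1.75. In CO against MONO, MYC differed by -1.53, NUMBL by -1.13, JAG1 by -1.04, TGFBR2 by 1.08, CIR1 by 1.14 and INHBE by 1.87. The cause was not tested.

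RPMI8226 has 2 libraries per condition. MM.1S MONO replicate 1 stands apart in gene length, and a correction for GC content and length gave 0.61 for NOTCH2 and 0.55 for HES1 in CO. CO libraries carry stromal transcripts, whose share in each gene was not tested. HES4 of MM.1S, HES6 and ID1 of RPMI8226 and HEY1 of MM.1S were under the filter on mean RPKM, and the fit without it called HEY1 lower in TSW and CO of MM.1S and HES6 lower in CO of RPMI8226. RNA does not show whether Notch receptors were cleaved or ID proteins made.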

How the results depend on the processing

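Among the pathway genes of MM.1S, TSW against MONO gave 11 calls, or 7 at a mean RPKM of 5 and 20 with no fold change threshold. CO against MONO gave 13, or 8 and 27 under the same changes. CO against TSW gave 2, or 5 with no filter on low values and 0 at a mean RPKM of 5, and between 1 and 2 with 1 library left out.

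In RPMI8226, TSW against MONO gave 23 pathway calls, or 58 with no fold change threshold. CO against MONO gave 30, or 55 with no threshold, and there the calls among the 9 genes went from 3 to 7, while calls over all genes went from 39.3% to 71.9%. CO against TSW gave 3 pathway calls, or 16 with no threshold. Calls among the 9 genes in CO against TSW were 0, or 1 (HES4) with a pseudocount of 0.1 or by voom, 3 (HES4, ID2 and ID3) with no threshold (27.6% of all genes), and between 0 and 1 with 1 library left out. The lone library left in an RPMI8226 condition is then assumed to vary like the other groups.

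Pathway genes that differed between the lines in TSW against MONO were 2, or 5 with a pseudocount of 0.1 and 4 under median-of-ratios scaling. Leaving out each library, an alternative chosen after seeing the data, gave between 2 and 4. The NUMBL difference in CO was -1.0 under quantile normalization and was lost, as was that of JAG1 under both scalings (-0.92 each).

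Scaling turned the share of called genes that were higher, over all genes, in CO against TSW of RPMI8226 from 44.2% to 57.8% under median-of-ratios scaling and to 59.0% under quantile normalization. In TSW against MONO it went from 44.7% to 52.1% and 48.5%, and in CO against MONO from 41.7% to 51.5% and 47.8%. The cause was not tested.

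The labels do not say what a replicate number shares. Deviations of same-numbered libraries correlated at -0.38 to 0.286 in MM.1S and at 0.164 to 0.271 in RPMI8226, where 2 libraries per condition give 1 value for each comparison, so pairing there was not settled. A replicate block moved the calls over all genes in MM.1S from 1080 to 1081, 1196 to 1209 and 42 to 40, in RPMI8226 from 3352 to 3353, 4056 to 4059 and 443 to 448, and changed no call of a pathway gene.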
